A study of Mus musculus with 2 samples.

Results

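The genes of glycolysis and of the response to low oxygen were followed across the immune cells of mouse visceral adipose tissue (VAT). The 32 genes were chosen by name, for their roles in glucose uptake, the glycolytic chain, lactate handling, its regulation and oxygen sensing, and all 32 were listed in both count files, which together name 26981 genes. Earlier results of these data were known when the genes were chosen. The cells were CD45+ cells from the epididymal fat of wild-type C57BL/6 mice aged 15 weeks. A single library came from mice on Normal water (NW) and 1 from mice given Antibiotics in their drinking water (ABX, per the study a mix of ampicillin, streptomycin, colistin and vancomycin). How many mice were pooled in a library is not given in the sources used here, so values carry counting error only and nothing is known of the spread between mice. Barcodes were read where they held at least 500 gene UMIs (unique molecular identifiers, each a captured mRNA molecule), at least 200 genes and at most 25% mitochondrial UMIs. This left 12474 cells in NW, with a median of 5092 UMIs, and 12724 in ABX, with a median of 3845.5 UMIs.

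Glycolysis splits glucose into pyruvate in the cytosol and yields ATP without oxygen. Lactate dehydrogenase then turns pyruvate into lactate, which monocarboxylate transporters carry across the cell membrane. When oxygen is low, prolyl hydroxylases of the Egln family no longer mark the factor HIF-1α for destruction, and HIF-1α raises many glycolytic genes together with genes of angiogenesis, mitophagy and lipid storage. In adipose tissue these pathways are known in activated lymphocytes, in group 2 innate lymphoid cells (ILC2s) and in macrophages.

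HIF-1α and its partner bind DNA at the core letters ACGTG, so these 5 letters were searched on both strands in the stretch from 250 bases before to 50 bases after each RefSeq transcription start (GRCm38.p6). A window was held for 31 of the 32 members, all but *Slc2a3*. The letters stood in at least 1 window of 23 members (74.2%), against 21.8% of the 27025 genes with a window. Members had more windows per gene than other genes, and counted by window the shares were 57.8% of 45 windows and 19.6% of 32851. The letters also lie inside the E-box CACGTG, which 19.4% of the members and 8.09% of all genes held. *Gpi1*, *Pfkl*, *Pfkp*, *Tpi1*, *Eno1*, *Ldhb*, *Pfkfb4* and *Pdk1* had no match in these windows. A match is only a run of letters, and no binding was measured here. The stretches that follow belong to members whose values are described at most length, and capitals mark ACGTG or, read on the other strand, CACGT.
Hilpda: tggccagcggACGTGccccagggcg
Hif1a: gctgagagcaACGTGggctggggtg
Egln1: gccgtggtgtACGTGcagcgcgcgc
Egln3: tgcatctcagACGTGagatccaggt
Ddit4: aacgttgcgaACGTGcgcccggtgc
Ldha: tgggttcccgCACGTccgctgggct
The *Hilpda* stretch is at chr6:29272573-29272597 on the plus strand, 43 bases before the start site. Those of *Hif1a* (chr12:73907787-73907811, plus strand) and *Egln1* (chr8:124949308-124949332, minus strand) begin their match 70 and 68 bases before the start. For *Egln3* (chr12:54204089-54204113, minus strand) and *Ddit4* (chr10:59951943-59951967, minus strand) the distances were 229 and 187 bases. For *Ldha* (chr7:46845760-46845784, plus strand) the stretch nearest to the start is shown, at 34 bases.

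Cells were clustered without the 32 genes, and clusters were named from marker genes. There were 758 ILC2-like cells in NW and 1247 in ABX, 1605 and 1621 T-like cells, 5705 and 4931 macrophage-like cells, 804 and 629 monocyte-like cells, 1630 and 1166 dendritic (DC)-like cells, and 164 and 260 plasma-like cells. The ILC2-like cluster carried 12 of its 14 markers and CD3ε transcripts in only 4.79% of its cells. *Hilpda* was among its 10 leading genes although it had no part in the clustering. The monocyte-like name was weaker. Its main cluster carried 5 of 11 markers, and a second of 31 cells, led by *Prg4*, *Alox15* and *Saa3*, carried 4. The 15 macrophage markers summed to 25.8 UMIs per 10000 UMIs in ILC2-like cells in NW and 16.6 in ABX, against 293 and 248 in macrophage-like cells. Although the cells were enriched for CD45 with magnetic beads, 389 endothelial-like cells were found in NW and 556 in ABX, with 5 and 87 fibroblast-like cells. The libraries shared 196 barcodes among the cells read. Levels below are the UMIs of a gene summed over a cell class, per 10000 UMIs of that class. They were compared for the same gene only, between classes and libraries. *Slc2a1*, *Hk1*, *Hk2*, *Hk3*, *Gpi1*, *Pfkm*, *Pfkp*, *Aldoa*, *Tpi1*, *Gapdh*, *Pfkfb3*, *Hif1a* and *Ankrd37* overlap genes on the other strand, and *Pfkm* also *Gm26513* on its own strand. Reads of pairs on opposite strands cannot be told apart if counting did not use strand. Ranges are exact 95% intervals and cover counting error only. A gene was counted as higher or lower past 1.5-fold, and with 1 library per condition no test was possible.

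*Hilpda*, which encodes a HIF-induced protein that blocks triglyceride breakdown and so favours lipid droplets, had 12.1 UMIs per 10000 in ILC2-like cells in NW (11.7 to 12.5) and 8.13 in ABX (7.87 to 8.40). All other cells together had 0.507 in NW and 0.357 in ABX, so that ILC2-like cells were 23.8-fold and 22.8-fold higher. Among the other named classes, T-like and neutrophil-like cells came next in NW, at 2.16 and 2.12, far under the ILC2-like level.
At least 1 *Hilpda* UMI was seen in 78.5% of the ILC2-like cells of NW (75.4 to 81.4) and in 68.8% of those of ABX (66.2 to 71.4). In DC-like cells, the class with the lowest level, it was seen in 9.45% and 7.55%, although their median depth was higher, at 8255 and 7644 UMIs against 3984.5 and 3454. Thinned to 1000 UMIs per cell, the expected shares were 53.9% and 43.1% in ILC2-like cells and 1.39% and 1.27% in DC-like cells. The gene was spread over the ILC2-like cluster. Its median was 3 UMIs per cell in NW and 1 in ABX, and the tenth of cells richest in it held 38.9% and 41.5% of its UMIs.

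Classes were compared with all other cells for genes with at least 50 UMIs expected in the class at the level of all cells. Of 27 such members, 10 were at least 1.5-fold higher in ILC2-like cells than in all other cells in both libraries, against 15.7% of all 9889 genes measured, and 4 were lower, against 19.7%. The median log2 ratio was 0.22 over these members and 0.16 over all genes. The members on the high side covered several steps of the pathway. *Slc2a1* and *Slc2a3*, the glucose transporters GLUT1 and GLUT3, were 3.68-fold and 3.15-fold higher in NW and 2.42-fold and 2.65-fold in ABX. *Hk1*, the hexokinase that traps glucose as its phosphate, had 0.943 UMIs per 10000 in NW and 0.886 in ABX, 3.16-fold and 2.96-fold above the other cells. *Hk3*, another hexokinase, was 4.39-fold and 5.47-fold lower, on only 22 and 16 UMIs.

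Further down the chain, *Aldoa*, the aldolase that splits the sugar, had 6.27 UMIs per 10000 in NW and 6.43 in ABX, 2.03-fold and 2.19-fold above the other cells. *Pfkm*, a phosphofructokinase of the step before it, was 2.44-fold and 1.96-fold higher. *Ldha*, the lactate dehydrogenase subunit that favours lactate, had 4.81 and 4.77 against 1.52 and 1.38 in the other cells. *Pdk1*, the kinase that inhibits pyruvate dehydrogenase, was 3.69-fold and 3.89-fold higher. The entry of glucose, the splitting of the sugar and the diversion of pyruvate each had members on the high side in ILC2-like cells, in both libraries. The rise did not extend to the whole chain. *Gpi1*, *Pfkl*, *Pfkp*, *Tpi1*, *Gapdh*, *Pgk1*, *Pgam1*, *Eno1* and *Pkm* did not pass the limit in both libraries. They ran from 0.735-fold (*Tpi1* in NW) to 1.56-fold (*Pkm* in ABX), and *Pfkp* was at 0.782-fold and 0.840-fold.

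Among the oxygen-sensing genes, *Hif1a* had 1.75 UMIs per 10000 in ILC2-like cells in NW and 1.63 in ABX, 2.17-fold and 2.41-fold above the other cells. *Egln1*, which encodes the main hydroxylase acting on HIF-1α, was 2.02-fold and 2.23-fold higher. Some other members were on the low side. *P4ha1*, a collagen prolyl hydroxylase subunit, was 2.34-fold and 2.59-fold lower, as were *Pfkfb4*, a regulator of phosphofructokinase (3.33-fold and 4.98-fold), and *Slc16a1*, the lactate transporter MCT1 (1.71-fold and 2.57-fold). *Pfkfb4* rested on only 15 and 13 UMIs and *Slc16a1* on 25 and 24. *Ldhb*, *Slc16a3*, *Egln3*, *Vegfa* and *Ankrd37* were not counted, because under 50 UMIs were expected in the class at the level of all cells. *Ldhb* had 35 and 49 UMIs and was 3.88-fold and 2.07-fold above the other cells. *Slc16a3* (39 and 53 UMIs) was 2.14-fold and 2.35-fold higher, and *Ankrd37* (34 and 56) 5.17-fold and 3.16-fold. *Egln3* (10 and 6) was at 1.16-fold and 0.744-fold, and *Vegfa* (21 and 35) at 1.32-fold and 1.52-fold.

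**Figure D1:**
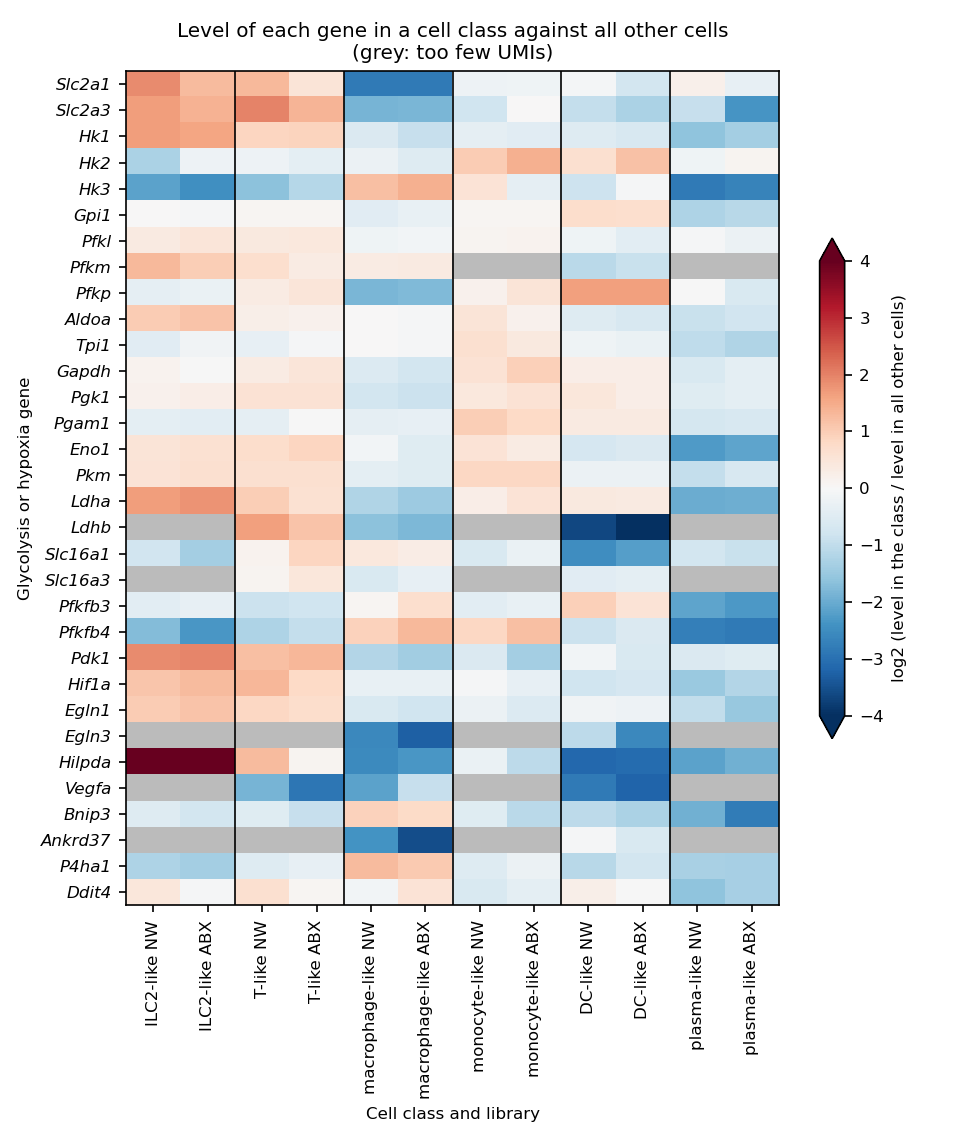
The colour is the log2 ratio of a gene's level in a cell class to its level in all other cells, for 32 genes (rows) in 6 classes with NW and ABX side by side (columns), and grey marks under 50 expected UMIs. *Hilpda* stands out in ILC2-like cells, at 23.8-fold in NW and 22.8-fold in ABX (beyond the colour scale), and plasma-like cells are low in most rows.

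T-like cells shared part of this pattern. Of 30 members measured, 9 were higher in both libraries, against 13.7% of 10846 genes, and 4 were lower, against 17.7%, with a median log2 ratio of 0.41 for the members and 0.15 for all genes. *Slc2a3* was 3.96-fold higher in NW and 2.59-fold in ABX. *Hif1a* was 2.50-fold and 1.74-fold higher, *Pdk1* 2.29-fold and 2.49-fold, *Ldhb*, the lactate dehydrogenase subunit that favours pyruvate, 3.14-fold and 2.20-fold, and *Ldha* 1.96-fold and 1.53-fold. *Hk1*, *Egln1*, *Eno1* and *Pkm* lay between 1.57-fold and 1.86-fold, the last pair encoding enolase and pyruvate kinase. *Eno1* has a near-identical copy, *Eno1b*, with its own column, so the division of reads between them is uncertain. On the low side were *Hk3* (3.12-fold and 2.22-fold lower), *Pfkfb4* (2.33-fold and 1.95-fold), *Pfkfb3*, which drives phosphofructokinase (1.83-fold and 1.72-fold), and *Vegfa* (3.63-fold and 7.35-fold). *Vegfa* rested on only 10 and 5 UMIs in T-like cells.

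Macrophage-like cells had the opposite arrangement for several of these genes. Of 32 members, 12 were lower in both libraries, against 29.4% of 13071 genes, and 4 were higher, against 13.1%. The median log2 ratio was -0.41 for the members and -0.26 for all genes. *Slc2a1* was 7.09-fold lower in NW and 7.10-fold in ABX, *Hilpda* 5.90-fold and 5.07-fold, *Slc2a3* 3.62-fold and 3.56-fold, *Pfkp*, the platelet-type phosphofructokinase, 3.51-fold and 3.44-fold, and *Ldha* 2.31-fold and 2.72-fold. *Pgk1* (1.66-fold and 1.81-fold), *Ldhb* (3.15-fold and 3.48-fold), *Pdk1* (2.23-fold and 2.60-fold) and *Egln1* (1.52-fold and 1.73-fold) were also lower, as were the scarcer *Egln3* (5.99-fold and 9.70-fold), *Vegfa* (4.43-fold and 1.90-fold) and *Ankrd37* (5.29-fold and 11.7-fold). *Egln3* rested on only 25 and 6 UMIs and *Ankrd37* on 25 and 13. The 4 on the high side were *Hk3* (2.28-fold and 2.68-fold), *P4ha1* (2.40-fold and 2.08-fold), *Pfkfb4* (1.91-fold and 2.45-fold) and *Bnip3*, a mitophagy receptor (1.88-fold and 1.70-fold). The hexokinase genes thus differed by class. *Hk1* was at 0.943 and 0.886 in ILC2-like cells and 0.258 and 0.219 in macrophage-like cells, and *Hk3* at 0.400 and 0.304 in macrophage-like cells and 0.0661 and 0.0356 in ILC2-like cells.

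In DC-like cells *Hk2*, the inducible hexokinase, was 1.57-fold and 2.27-fold higher than in all other cells, *Pfkp* 3.13-fold and 3.10-fold, and *Gpi1*, the isomerase of the next step, 1.64-fold and 1.59-fold. These 3 of 32 members compare with 9.77% of 11683 genes, and 11 were lower, against 27.5%, among them *Ldhb* (12.6-fold and 19.7-fold), *Hilpda* (8.81-fold and 8.48-fold), *Slc16a1* (5.65-fold and 4.58-fold) and *Hif1a* (1.74-fold and 1.59-fold). The other 7 were *Slc2a3* (1.95-fold and 2.39-fold), *Pfkm* (2.10-fold and 1.87-fold), *Pfkfb4* (1.81-fold and 1.5-fold), *Egln3* (2.07-fold and 5.98-fold), *Vegfa* (7.14-fold and 9.12-fold), *Bnip3* (2.07-fold and 2.41-fold) and *P4ha1* (2.14-fold and 1.66-fold). Few UMIs lay behind *Ldhb* (4 and 3), *Egln3* (19 and 3) and *Vegfa* (11 and 6) in DC-like cells, so the size of these folds is uncertain. In monocyte-like cells *Hk2*, *Pgam1*, *Pkm* and *Pfkfb4* were higher, between 1.73-fold and 2.70-fold, which was 4 of 26 members against 2.60% of 9319 genes, and none was lower, against 8.19%. *Pfkl*, the liver-type phosphofructokinase, and *Gapdh* passed the limit in both libraries in none of the 6 classes.

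Plasma-like cells were low in most members. Of 26 measured, 19 were at least 1.5-fold lower in both libraries, against 59.5% of 8990 genes, and none was higher, against 4.37%. *Vegfa* was not among these 26, because under 50 UMIs were expected in the class at the level of all cells. It was 16.6-fold higher than in all other cells in NW and 7.29-fold in ABX, on 122 and 89 UMIs. *Ldha* had 0.429 UMIs per 10000 in NW and 0.432 in ABX, *Eno1* 0.284 and 0.286, and *Hif1a* 0.307 and 0.342. Among the lowest were *Hk3* (7.07-fold and 6.39-fold lower, on 9 and 9 UMIs) and *Pfkfb4* (6.61-fold and 7.11-fold, on 5 and 6). *Bnip3*, *Pfkfb3*, *Hilpda*, *Hk1* and *Ddit4* lay between 2.53-fold and 6.91-fold. *Slc2a3*, *Gpi1*, *Aldoa*, *Tpi1*, *Pgam1*, *Pkm*, *Slc16a1*, *Egln1* and *P4ha1* were the other 9, between 1.56-fold and 5.11-fold. Immunoglobulin transcripts took 43.7% of the UMIs of plasma-like cells in NW and 41.4% in ABX, which lowers every other gene on this scale. Scaled without immunoglobulin, ribosomal, mitochondrial and hemoglobin genes, 8 of 22 members were lower, against 27.2% of all genes, namely *Hk1*, *Hk3*, *Eno1*, *Ldha*, *Pfkfb3*, *Hilpda*, *Bnip3* and *Ddit4*.

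Neutrophil-like cells were few, 62 in NW and 56 in ABX, and had the highest measured levels of *Slc2a3*, *Slc16a3*, *Hk3* and *Pkm* among the 10 classes with at least 50 cells in each library. *Slc2a3* was at 4.01 and 4.0 UMIs per 10000. *Slc16a3*, the lactate exporter MCT4, was at 3.79 and 3.16, against 0.120 or less in each of the 6 classes above. *Hk3* was at 1.82 and 1.39, on only 25 and 15 UMIs (1.18 to 2.69 in NW, 0.781 to 2.30 in ABX), and *Pkm* at 5.69 and 3.90 on 78 and 42.

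Between NW and ABX most members differed little. In ILC2-like cells, 28 members had at least 50 UMIs over both libraries. The only one at least 1.5-fold higher in ABX was *Hk2*, against 3.25% of 9510 genes, and none was at least 1.5-fold lower, against 4.50%. The median log2 ratio was 0.02 for the members and 0.01 for all genes. *Hk2* rested on 23 UMIs in NW and 61 in ABX, a log2 ratio of 0.98 (0.26 to 1.73), and had under 50 UMIs once proliferating cells were left out, with a ratio of 2.52. *Hilpda* lay just inside the limit, at 1.49-fold lower in ABX, a log2 ratio of -0.57 (-0.64 to -0.51) on 4025 and 3654 UMIs. It thus stood far above the other cells in both libraries and lower in ABX than in NW by more than counting error. *Ldha*, *Aldoa* and *Hif1a* had log2 ratios of -0.01, 0.04 and -0.11, with intervals that held 0.

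In T-like cells 3 members were lower in ABX, against 3.79% of 10535 genes, and 1 was higher, against 4.23%, of 30 measured. *Hilpda* had 2.16 UMIs per 10000 in NW and 0.997 in ABX, a log2 ratio of -1.12 (-1.26 to -0.98). *Hif1a* had 1.86 and 1.20, a log2 ratio of -0.63 (-0.76 to -0.50). *Egln3*, a HIF-induced hydroxylase that acts back on HIF-1α, had 0.149 and 0.0668, a log2 ratio of -1.16 (-1.71 to -0.63) on 104 and 42 UMIs. Over 11 alternative settings the *Egln3* ratio ran from -1.52 to -0.69. Other hypoxia genes stayed inside the limit, *Egln1* at -0.11, *Bnip3* at -0.18, *P4ha1* at -0.17 and *Ddit4* at -0.01, each with an interval that held 0. *Ldha* was 1.27-fold lower (2.99 and 2.36). *Slc16a1* was on the high side, at 0.137 and 0.221, a log2 ratio of 0.69 (0.30 to 1.08), which was 0.14 with clusters of mRNA alone and 0.25 with T-like cells chosen by marker UMIs, both under the limit.

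The 6 clusters of T-like cells were present in different shares, and the differences were not the same in each. The cluster led by *Foxp3*, the defining factor of regulatory T cells, *Ctla4* and *Ikzf2* held 401 of the T-like cells in NW and 168 of those in ABX. The cluster led by *Cd4* and *Trac* held 618 and 511. These 2 had the highest *Hif1a* of the T-like clusters. In the *Cd4*-led cluster *Hif1a* was at 2.36 in NW and 1.66 in ABX, and in the *Foxp3*-led cluster it was at 2.51 and 2.50, a log2 ratio of -0.01 (-0.31 to 0.29). In the smaller cluster led by *Nsg2* and *Lef1* it was at 1.37 and 0.516, and in the other 3 its interval held 0. *Hilpda* was at 2.76 and 0.949 in the *Cd4*-led cluster, a log2 ratio of -1.54 (-1.76 to -1.32), and at 2.91 and 1.86 in the *Foxp3*-led cluster, a log2 ratio of -0.64 (-0.98 to -0.32). It went the other way in the cluster led by *Cd163l1* and *Trdc*, the latter the constant part of the T cell receptor δ chain, where it was at 1.51 and 2.14, a log2 ratio of 0.50 (0.18 to 0.82). *Egln3* in the *Foxp3*-led cluster was at 0.402 and 0.179, on 65 and 9 UMIs.

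With each T-like cluster given the same weight in both libraries, the log2 ratio of *Hif1a* shrank to -0.32, under the limit, and that of *Hilpda* to -0.84. Choosing T-like cells by their marker UMIs without clusters gave a smaller class, 879 cells in NW and 1159 in ABX. Of these, 1495 were also T-like by cluster. In this class the *Hif1a* ratio was 0.000995 and that of *Hilpda* -0.60, so the *Hif1a* difference depended on which T cells were taken. Without cells that held 2 or more UMIs of proliferation genes, the ratios were -0.83 for *Hilpda* and -0.40 for *Hif1a*. The 18 genes induced by tissue dissociation summed to 153 UMIs per 10000 in NW and 119 in ABX in T-like cells, the 15 macrophage markers to 47.1 and 36.6, and the 14 ILC2 markers to 46.0 and 34.8. Their part in these differences was not tested.

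**Figure D2:**
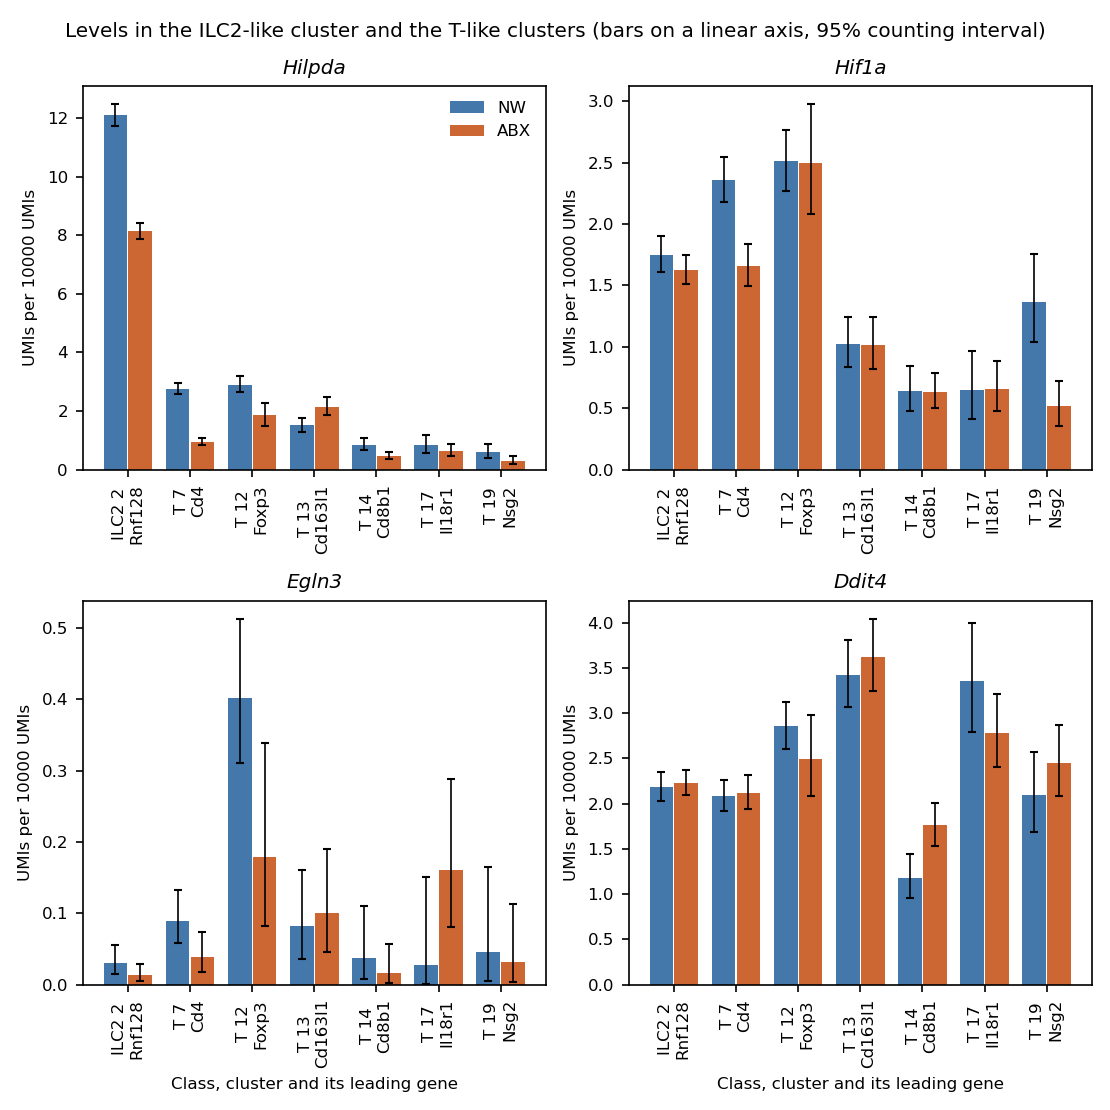
Bars give UMIs per 10000 UMIs of *Hilpda*, *Hif1a*, *Egln3* and *Ddit4* in the ILC2-like cluster and the 6 T-like clusters, NW in blue and ABX in orange, with 95% counting intervals. *Hilpda* is lower in ABX in the *Cd4*-led cluster (2.76 and 0.949) and higher in the *Cd163l1*-led cluster (1.51 and 2.14), and *Hif1a* is level in the *Foxp3*-led cluster (2.51 and 2.50).

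In macrophage-like cells 3 of 30 members were higher in ABX, against 7.30% of 12034 genes, and none was lower, against 1.86%. The median log2 ratio was -0.04 for the members and 0.03 for all genes. The largest in UMIs was *Ddit4*, which encodes REDD1, an inhibitor of the growth kinase mTORC1 induced by hypoxia, glucocorticoids and other stress. It had 1.56 UMIs per 10000 in NW (1.52 to 1.60) and 2.86 in ABX (2.79 to 2.93), 1.83-fold higher, a log2 ratio of 0.87 (0.82 to 0.93) on 5485 and 6359 UMIs. A UMI of *Ddit4* was seen in 41.4% and 52.1% of macrophage-like cells, and in 14.4% and 23.7% after thinning to 1000 UMIs. The dissociation genes summed to 240 and 231 and the proliferation genes to 1.72 and 2.90 in these cells, and their part was not tested. Over 11 alternative settings the log2 ratio stayed between 0.80 and 0.92.

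The *Ddit4* difference was present in each of the 4 macrophage-like clusters. The cluster led by *Retnla* and *Cd163* had 1.63 in NW and 2.93 in ABX. The cluster led by *Klkb1*, *Ednrb* and *Lyve1* had 1.46 and 2.91. That led by *Ccl12*, *Cx3cr1* and *Il1b* had 1.76 and 2.55, just inside the 1.5-fold limit, and the interferon-responding cluster had 1.17 and 2.97. The level was also higher in ABX in monocyte-like cells (1.08 and 1.75, a log2 ratio of 0.70, 0.50 to 0.90), plasma-like cells (0.546 and 0.940, 0.78, 0.47 to 1.10) and endothelial-like cells (1.58 and 2.87, 0.86, 0.69 to 1.04). In the endothelial-like class the 9 endothelial markers summed to 60.1 and 128 and the macrophage markers to 163 and 104, and their part was not tested. In B-like cells *Ddit4* was higher in ABX by less than the limit (1.07 and 1.49, a log2 ratio of 0.48, 0.26 to 0.71). In ILC2-like cells it was 2.19 and 2.23 and in T-like cells 2.42 and 2.40, with intervals of the ratio that held 0. Among the DC-like clusters it was higher in that with *Xcr1* among its leading genes (1.71 and 2.27) and not in that led by *Cd209a* (3.09 and 2.81). *Ddit4* therefore did not share the direction of *Hilpda* and *Hif1a*, each of which had a log2 ratio below 0 in 8 of the 9 classes with enough UMIs, all but plasma-like cells. Several of these ratios were within counting error of 0. Intervals held 0 for *Hif1a* in ILC2-like, DC-like, B-like and natural killer (NK)-like cells, and for *Hilpda* in macrophage-like, DC-like and NK-like cells. The direction was not particular to them, as *P4ha1* was below 0 in all 9 of its classes and *Eno1* in 8 of 10.

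**Figure D3:**
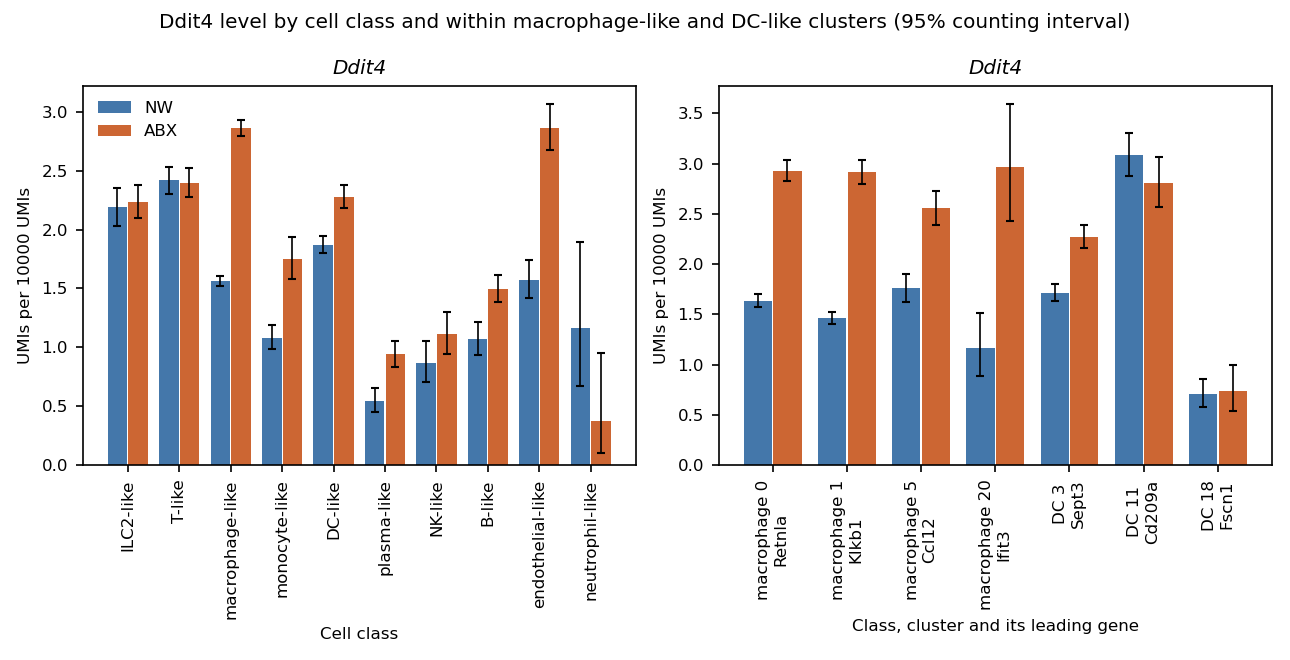
Bars give *Ddit4* UMIs per 10000 UMIs in 10 cell classes (left) and in the macrophage-like and DC-like clusters (right), NW in blue and ABX in orange, with 95% counting intervals. All 4 macrophage-like clusters are higher in ABX, whereas ILC2-like cells (2.19 and 2.23) and T-like cells (2.42 and 2.40) are level.

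The other macrophage members past the limit were scarce. *Vegfa*, the angiogenic growth factor, had 60 UMIs in NW and 75 in ABX, levels of 0.0171 and 0.0338, and a log2 ratio of 0.98 (0.47 to 1.5). The cluster with *Lyve1* held 17 and 41 of these UMIs, and without proliferating cells the ratio was 0.125. *Ldhb* had 50 and 49 UMIs and a log2 ratio of 0.63 (0.03 to 1.23). Its ratio ranged from 0.48 to 0.89 over the alternative settings, on both sides of the limit. Of the 30 members, 13 had an interval below 0 and 7 one above it. Among those inside the limit, *Eno1* was at -0.42, *Hk3* at -0.40, *Ldha* at -0.33 and *Pgk1*, the first ATP-yielding kinase, at -0.31, while *Slc2a3* was at 0.39, *Pfkfb3* at 0.34, *Bnip3* at 0.23 and *Pfkl* at 0.23.

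In monocyte-like cells 2 of 28 members were higher in ABX, against 7.63% of 9183 genes, and 4 were lower, against 7.05%. *Slc2a3* had 0.101 and 0.245 UMIs per 10000, a log2 ratio of 1.28 (0.67 to 1.91), and *Ddit4* was the other. *Hk3* was lower, at 0.395 and 0.143 (-1.46, -2.07 to -0.90), as were *Hilpda* at 0.855 and 0.463 (-0.89, -1.22 to -0.56), *Slc16a3* at 0.120 and 0.0601 and *Vegfa* at 0.169 and 0.102. These ratios depended on how the class was drawn. Classes set from marker UMIs held only 201 and 104 monocyte-like cells. The *Slc2a3* ratio was 0.26 with clusters of mRNA alone and -0.85 with classes set from marker UMIs. *Hilpda* was at -0.10 with classes set from marker UMIs, and *Hk3* at -0.49 with every cell weighed the same, both inside the limit. *Vegfa* ranged from -2.02 to -0.37, *Slc16a3* from -1.27 to -0.58 and *Ddit4* from 0.64 to 1.69. The cells had low depth, with medians of 2409.5 and 1623 UMIs. Macrophage markers summed to 92.4 in NW and 60.4 in ABX in them, dissociation genes to 157 and 122, proliferation genes to 5.83 and 12.9, and the 5 erythroid markers to 0.0123 and 3.78. Their part in the monocyte-like differences was not tested.

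In DC-like cells no member of 29 passed the limit, against 2.98% of 10645 genes higher and 2.73% lower. The ratios ran from -0.29 to 0.47 on the log2 scale, with *Ddit4* at 0.28 (0.20 to 0.37), on levels of 1.87 and 2.28. In plasma-like cells 1 of 22 members was higher, *Ddit4*, against 6.73% of 7279 genes, and 1 was lower, *Vegfa*, against 4.25%. *Vegfa* had 0.551 UMIs per 10000 in NW and 0.295 in ABX, a log2 ratio of -0.90 (-1.31 to -0.49), and these were the highest *Vegfa* levels of the 10 classes in each library.

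**Figure D4:**
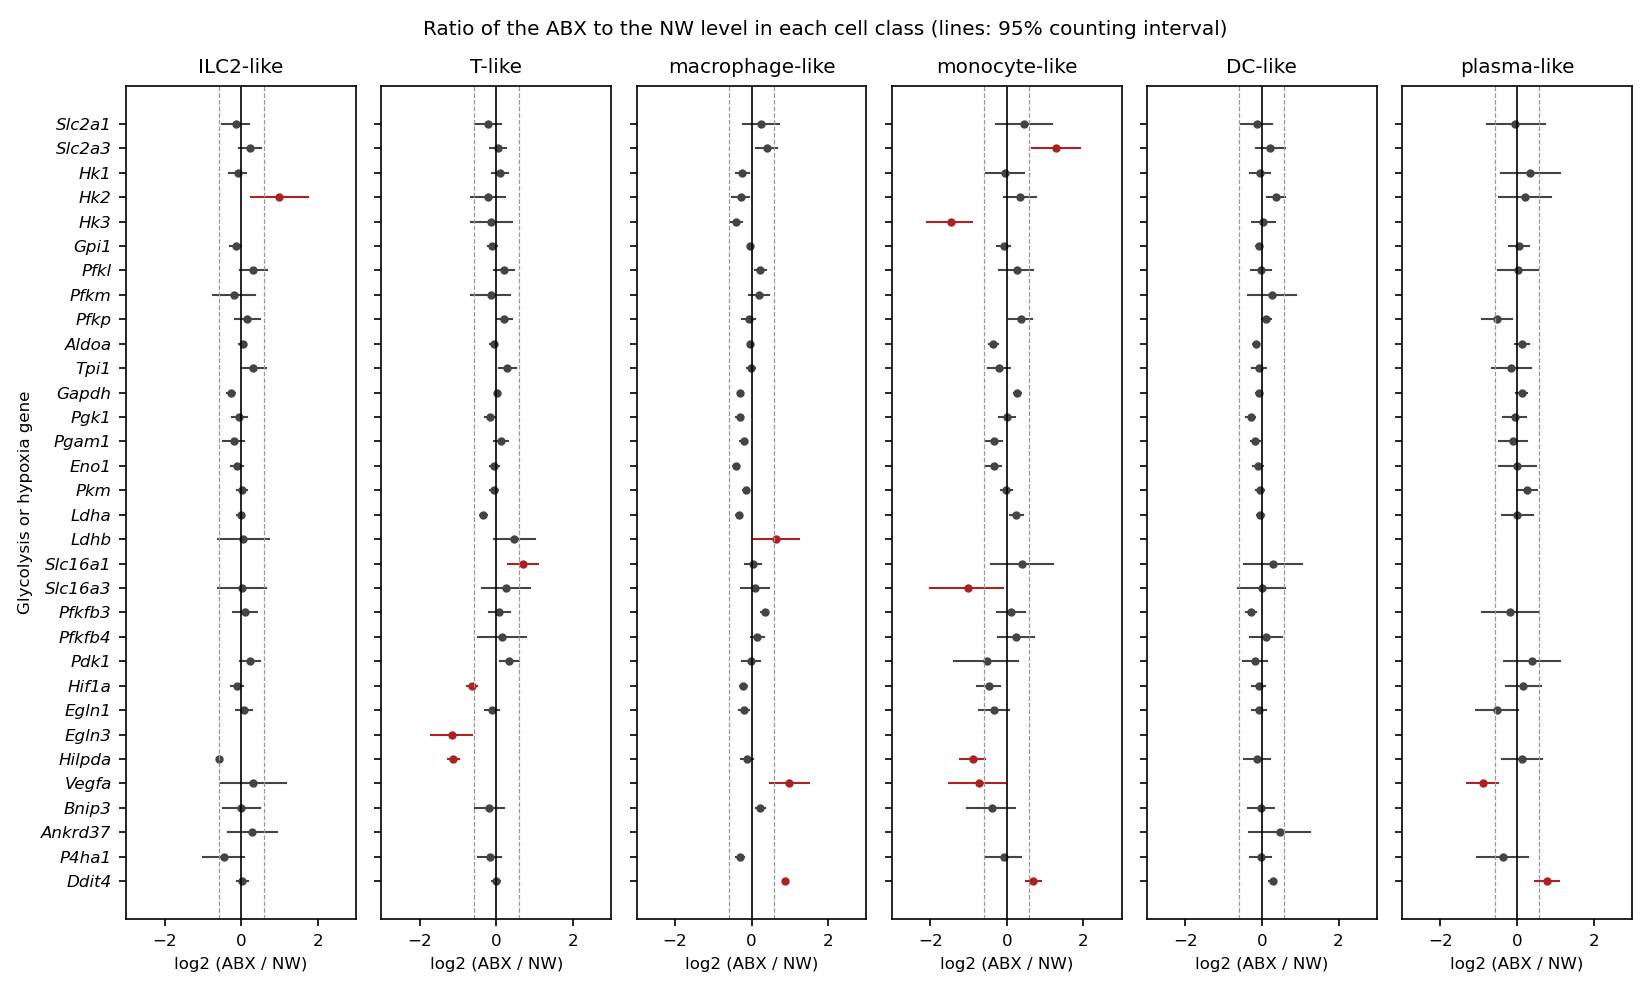
Points give the log2 ratio of ABX to NW for each gene (rows) in 6 cell classes (panels), lines the 95% counting interval, dashed lines the 1.5-fold limit, and red the members past it. Most points sit between the dashed lines, the exceptions being *Hilpda*, *Egln3* and *Hif1a* in T-like cells and *Ddit4* in macrophage-like, monocyte-like and plasma-like cells among others.

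Other genes of the same pathways, 83 from a list of glycolysis branches and hypoxia genes, were compared in the same way. In ILC2-like cells 2 of 61 measured were at least 1.5-fold higher in ABX and 5 lower, against 3.25% and 4.50% of all genes. *Bpgm* and *Vhl*, the latter encoding the ligase subunit that recognises hydroxylated HIF-1α (0.165 and 0.269), were higher. *Ndrg1*, a hypoxia-induced gene, was at 0.123 and 0.0423, and *Hmox1*, heme oxygenase, at 0.781 and 0.309, with *Pgm1*, *Slc37a2* and *Tfrc* also lower. *Hmox1* is abundant in macrophages and the macrophage markers were likewise lower in these cells, as given above, and their part was not tested. In T-like cells none of 62 was higher and 5 were lower, against 4.23% and 3.79% of all genes. *Ndrg1* was at 0.355 and 0.126, a log2 ratio of -1.5 (-1.88 to -1.13), on 248 and 79 UMIs, the same direction as *Hilpda* and *Egln3* there. *Hmox1*, *Plod2*, *Arnt2* and *Slc37a2* were the others.

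In macrophage-like cells 9 of 69 were higher and 1 lower, against 7.30% and 1.86% of all genes. The 5 with the largest ratios were *Stc2*, *Adm*, *Plod2*, *Lox* and *Epas1*, which encodes HIF-2α (0.0356 and 0.0666), and *Car9*, the hypoxia-induced carbonic anhydrase, was lower (0.0265 and 0.0126). Most were scarce, with 35 and 70 UMIs of *Stc2*, 28 and 53 of *Adm*, 21 and 36 of *Plod2* and 40 and 51 of *Lox*. *Lox* and *Plod2* act in collagen cross-linking. *Ndrg1*, singled out after its values were seen, was on the high side there, at 0.0245 and 0.0432. The 9 fibroblast markers summed to 1.13 and 2.42 in the same cells, and the 14 ILC2 markers to 2.37 and 2.70. In ILC2-like cells *Stc2* was far higher, at 1.85 and 2.10, as was *Plod2*, at 0.976 and 1.12. The part of RNA from these other cells was not tested. In monocyte-like cells 4 of 53 were higher, *Mif*, *Narf*, *Eno3* and *Slc2a6*, against 7.63% of all genes. Those on the low side included *Angptl4*, *Taldo1*, *Pgd* and *Slc37a2*, where 7.05% of all genes were lower. In DC-like cells 4 of 58 were lower, *Eno2*, *Selenbp1*, *Pygl* and *Plod1*, against 2.73% of all genes, and none was higher, against 2.98%. In plasma-like cells none of 41 passed the limit, against 6.73% of all genes higher and 4.25% lower. The 20 genes of oxidative phosphorylation stayed inside the limit in all 6 classes, with medians between -0.08 and 0.05. The dissociation genes had medians between -0.51 and -0.12, lower in ABX throughout, and the proliferation genes medians between -0.02 in ILC2-like and 1.07 in macrophage-like cells.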

How the data were processed

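VAT CD45+ cells of 1 NW and 1 ABX library were profiled on the BD Rhapsody platform. The deposited files hold counts of UMIs per gene and cell, which the authors made with the BD whole transcriptome pipeline from quality-filtered reads on GRCm38. The submitters' processing notes name mm10, R 3.6.0 and Seurat 3.0.1, and whether counting used strand is not given in the sources used here. Antibody tags were left out of all levels. Cells were clustered on mRNA and 8 antibody tags with Seurat 5.3.0 (R 4.3.3), the 32 members left out of the variable genes, into 30 clusters. A cluster was named where at least 3 fixed markers were raised and its leading genes did not go against the name, and 7 clusters stayed unnamed. UMIs were summed per class and library. Ratios of ABX to NW needed 50 UMIs in the sum of NW and ABX. For a class against all other cells, 50 UMIs had to be expected in it at the level of all cells. An arm with no UMI was set to 3 counts. Intervals are exact (Poisson for levels, Clopper-Pearson for shares, conditional binomial for ratios) and cover counting error only. The ratio script was tested on simulated data. Doublets were scored with Scrublet (scanpy 1.11.5) and, since none were removed from the values reported, the 6% highest were left out as an alternative. The members and lists were chosen with earlier results of these data known, and the naming rules, the filter on expected UMIs and the marker-UMI classes were adjusted after the clusters were seen. The rule for named genes took the members past 1.5-fold in either comparison and, of the other pathway genes, up to 5 in each direction per class. Further members are given to describe a role. Median UMIs per cell were 5092 in NW and 3845.5 in ABX. A result among the other pathway genes in monocyte-like cells is not reported here.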

Additional observations from a re-analysis of the deposited data

Results flagged for a closer look

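*Slc16a1*, the lactate transporter MCT1, differed between NW and ABX in opposite directions by cell class. Its log2 ratio of ABX to NW was 0.686 in T-like cells and 1.15 in endothelial-like cells, but -1.74 in B-like cells, where it rested on 103 and 64 UMIs. The T-like value was 0.138 with clusters of mRNA alone and 0.252 with classes set from marker UMIs, under the limit. The B-like cells held a cluster led by *Vpreb3*, *Vpreb1* and *Rag1*, genes of B cell precursors. It had 51 NW cells against 21 ABX cells, and its *Slc16a1* level was 1.78 and 2.26 UMIs per 10000. In the other B-like cluster the level was 0.174 and 0.0906.

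*Vegfa* also went both ways. Its log2 ratio was 0.982 in macrophage-like cells and 1.33 in endothelial-like cells, and -0.735 in monocyte-like and -0.898 in plasma-like cells. The macrophage-like value was 0.125 without proliferating cells, and the monocyte-like value ranged from -2.02 to -0.367 over the alternative settings. In the endothelial-like class, which enters both genes' results, marker sums differed between the libraries. Its 9 endothelial markers summed to 60.1 UMIs per 10000 in NW and 128 in ABX, 15 macrophage markers to 163 and 104, and 6 adipocyte markers to 9.99 and 15.7, and their part was not tested. With 1 library per condition these differences between cell classes were not tested.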

How the results depend on the processing

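The numbers of members past 1.5-fold were small and several depended on a setting. For ABX against NW in ILC2-like cells (1 member), the number was 2 with classes from marker UMIs or every cell weighed the same, 3 with clusters of mRNA alone, without likely doublets, with a minimum of 20 UMIs or the looser fold limit, and 0 without proliferating cells, with a minimum of 200 UMIs or a limit of 2-fold. In T-like cells (4) it was 2 with marker-UMI classes, cells weighed the same or 2-fold, and 7 with the looser limit. In macrophage-like cells (3) it was 1 with 200 UMIs, 0 with 2-fold and 8 with the looser limit. In monocyte-like cells (6) it was 11 with marker-UMI classes, 12 with mRNA alone, 10 with cells weighed the same, 2 with 200 UMIs, 3 with 2-fold and 17 with the looser limit. In DC-like cells (0) it was 1 with mRNA alone, cells weighed the same or 20 UMIs, and 2 with the looser limit. In plasma-like cells (2) it was 4 with 20 UMIs, 0 with 2-fold and 7 with the looser limit. For a class against all other cells, the ILC2-like number (14) was 7 with 200 UMIs, the T-like (13) 5 with 2-fold and 20 with the looser limit, the DC-like (14) 7 with 2-fold, and the plasma-like (19) 8 when scaled without mitochondrial, ribosomal, immunoglobulin and hemoglobin genes and 12 with 200 UMIs. The monocyte-like number (4) was 7 with members among the variable genes or cells weighed the same, 8 with at most 10% mitochondrial UMIs, 2 with 200 UMIs, 1 with 2-fold and 12 with the looser limit. The macrophage-like number (16) stayed between 11 and 21. With marker-UMI classes the log2 ratio of *Hif1a* in T-like cells was 0.000995 and that of *Slc2a3* in monocyte-like cells -0.853. The causes were not tested, except that a stricter minimum or limit passes fewer genes by construction. No paired analysis was possible because each condition had 1 library. Depth limited several members, which had under 50 UMIs over both libraries in at least 1 class. Among them were *Vegfa*, *Egln3*, *Slc16a3*, *Ldhb*, *Ankrd37*, *Hk3*, *Slc16a1*, *Pfkfb4*, *Pfkm*, *Slc2a3* and *Bnip3*. In plasma-like cells 10 members were under that minimum.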
